A study of Homo sapiens with 6 samples.

Results

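The genes described here are the small nucleolar RNA (snoRNA) host genes of the SNHG series, with 4 further long non-coding hosts, GAS5, ZFAS1, DANCR and EPB41L4A-AS1. They were chosen by symbol, as SNHG followed by a number (SNHG14 left out) or as 1 of the 4 names, with a largest count above 12 over the 6 libraries. The symbols named 30 of the 30270 genes in the table, and 28 of these passed the count limit. SNHG27, whose counts went up to 7, and SNHG28, whose counts went up to 10, did not pass and are not described further. The rule itself uses no measured difference between groups, but it was written with earlier results of these data known.

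The data are estimated gene counts from ribosomal RNA-depleted total RNA of HEK 293T cells, an immortalized human embryonic kidney line. There were 3 libraries of wild-type cells (WT) and 3 libraries that the labels call a TENT3A/B double knockout, named ΔTUT4/7 here. The labels list no treatment for either group, and both were grown in the same medium. TUT4 (TENT3A) and TUT7 (TENT3B) add uridines to the 3′ ends of RNAs. The knockout cells had been made earlier in another laboratory, so the groups compare 1 knockout line with 1 WT line, and a line effect cannot be told apart from the genotype. The labels call the 3 libraries of a group biological replicates without naming separate clones or cultures, so p-values here measure the spread between these libraries. Library totals ran from 18757228 to 33148937 counts.

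The targeted genes were checked first. TUT7 had 60.4, 62.6 and 64.8 CPM (counts per 1e6 counts of the scaled library) in WT replicates 1, 2 and 3 and 27.2, 25.2 and 26.5 CPM in the libraries labelled ΔTUT4/7. TUT4 had 212, 216 and 206 CPM in WT and 882, 920 and 917 CPM in the libraries labelled ΔTUT4/7. TUT7 was thus lower with a log2 fold change of -1.25 ± 0.06 (SE), and TUT4 was higher with 2.10 ± 0.04, against its label. Counts over a whole gene do not show whether a deleted stretch lacked reads. Every direction below rests on the label, and the group is called the libraries labelled ΔTUT4/7. Of the HEK 293T markers, 3 of 7 were higher and 4 lower in these libraries, with summed levels of 1869 to 2042 CPM in WT and 1366 to 1394 CPM in the libraries labelled ΔTUT4/7. NEFM, a neurofilament subunit, went from 18074, 22844 and 34030 counts to 0, 0 and 1. Of 5 haematopoietic markers PTPRC, CD3E and HBB had no row in the table, and the list's sum was 1.73 to 3.25 CPM in WT and 1.76 to 2.46 CPM in the other group. Of 5 fibroblast markers COL1A2, DCN and LUM had no row, and the sum, nearly all COL1A1, was 20.3 to 23.5 CPM in WT and 6.42 to 7.96 CPM in the other group. The part of these differences in the results below was not tested.

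A snoRNA host gene is transcribed and spliced like any other gene, and the snoRNA is cut out of an intron after splicing, by debranching of the lariat and trimming of its ends. Box C/D snoRNAs guide 2′-O-methylation, box H/ACA snoRNAs guide pseudouridylation, both mainly of ribosomal RNA, and scaRNAs do the same for spliceosomal RNAs in Cajal bodies. In many hosts of this family the joined exons encode no conserved protein. Where such exons are translated, the RNA meets an early stop codon and is removed by nonsense-mediated decay, and many of these genes begin with a terminal oligopyrimidine (TOP) tract, a C followed by pyrimidines, as ribosomal protein genes do.

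The annotation placed 65 snoRNAs or scaRNAs inside the 28 genes, 37 of them box C/D, 24 box H/ACA and 4 scaRNA. GAS5 held 11 and SNHG1 held 8, while 14 genes held 1 each. The start sites are shown first, since the TOP tract is the feature the family is best known for. RefSeq promoters (build GRCh38.p14) matched 24 of the 28 genes. In 6 of them the first transcribed base was C and at least 4 more pyrimidines followed. Each line gives 20 bases before the start and 50 bases from it, 5′ to 3′ on the gene's strand, with the pyrimidine run that begins at the first transcribed base in capitals.
SNHG4, chr5:139274081-139274150, plus strand: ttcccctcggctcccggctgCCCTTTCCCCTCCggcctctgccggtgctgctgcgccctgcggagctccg
SNHG12, chr1:28581824-28581893, minus strand: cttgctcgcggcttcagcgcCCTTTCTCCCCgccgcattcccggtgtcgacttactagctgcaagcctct
SNHG32, chr6:31834896-31834965, plus strand: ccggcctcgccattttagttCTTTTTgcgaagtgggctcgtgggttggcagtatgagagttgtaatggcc
SNHG19, chr16:2155309-2155378, minus strand: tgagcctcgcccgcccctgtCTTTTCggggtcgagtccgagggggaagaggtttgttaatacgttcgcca
SNHG5, chr6:85678684-85678753, minus strand: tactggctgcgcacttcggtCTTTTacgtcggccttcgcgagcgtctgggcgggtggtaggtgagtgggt
ZFAS1, chr20:49278622-49278691, plus strand: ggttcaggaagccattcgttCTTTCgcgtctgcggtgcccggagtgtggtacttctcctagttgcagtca

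These 6 were 25% of the matched genes, and 4.07% of all 35116 promoters in the reference began in this way. In some other abundant members, SNHG1, SNHG3, SNHG16 and SNHG17, the longest pyrimidine run began a few bases downstream of the RefSeq start. In GAS5 and SNHG29 it began further on. In the next lines the capitals mark the longest run of C and T within the 50 bases from the start.
SNHG1, chr11:62855836-62855905, minus strand: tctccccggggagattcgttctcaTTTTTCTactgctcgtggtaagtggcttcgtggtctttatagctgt
SNHG3, chr1:28505923-28505992, plus strand: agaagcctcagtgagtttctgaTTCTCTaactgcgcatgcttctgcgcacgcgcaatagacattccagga
SNHG16, chr17:76557744-76557813, plus strand: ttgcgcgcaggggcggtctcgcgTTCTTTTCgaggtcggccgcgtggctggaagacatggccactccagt
SNHG17, chr20:38435279-38435348, minus strand: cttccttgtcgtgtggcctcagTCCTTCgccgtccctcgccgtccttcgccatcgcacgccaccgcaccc
GAS5, chr1:173868996-173869065, minus strand: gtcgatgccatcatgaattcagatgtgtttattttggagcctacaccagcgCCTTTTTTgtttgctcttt

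The run began 5 bases into the transcript in SNHG1, 3 in SNHG3, 4 in SNHG16 and 3 in SNHG17, counted from 1 at the first base. In GAS5 it began at base 32, and in SNHG29, which is not printed, at base 18. A longest run can be marked in any sequence, and how often other promoters have one near the start was not counted. An annotated start is not a measured one. RefSeq and the deposited table gave the same start for 6 members and starts within 50 bases for 11. The largest difference, in SNHG20, was 1927 bases. Of the 6 genes with a pyrimidine run at the first base, SNHG19 had the same start in both, and SNHG4 differed by 1 base. The starts of SNHG5, SNHG32, ZFAS1 and SNHG12 differed by 199, 308, 464 and 1259 bases. A run outside the first base in this window therefore says nothing about where transcription began in these cells.

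Across the 28 host genes, 16 rose and 5 fell in the libraries labelled ΔTUT4/7 at an adjusted p under 0.05, and 7 did not pass the test. Over all 23952 genes tested, 28.6% were higher and 29.0% lower by the same test, 57.7% in either direction. The largest rise that held in each library was that of SNHG17, and the largest fall that of SNHG31, a gene of very low level. The median log2 fold change of the hosts was 0.41, beside -0.02 over all genes tested and -0.29 over the 4966 lncRNAs tested. Of those lncRNAs, 10.8% were higher and 30.6% lower. At mean counts of at least 50, in the same fit, there remained 24 hosts with a median of 0.40, of which 15 were higher and 4 lower. The 1622 lncRNAs at that limit had a median of -0.20. Among all 15575 genes at that limit, 6111 were higher and 4933 lower, with a median of 0.06. A new fit of those genes alone gave the hosts a median of 0.33, with 14 higher and 5 lower. The WT and ΔTUT4/7 libraries did not overlap in 17 hosts that were higher and 3 that were lower (30.9% and 31.8% of all genes). In bulk RNA, fewer cells expressing a gene and less of its RNA per cell cannot be told apart.

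Changes of 2-fold or more were few among the hosts. SNHG17 and SNHG25 were higher by that size (5.9% of all genes) and SNHG31 lower (12.4% of all genes). Together the 28 genes had 1829, 1912 and 2041 CPM in WT and 2319, 2385 and 2327 CPM in the libraries labelled ΔTUT4/7, without overlap. The 2 hosts with the highest CPM, SNHG16 and SNHG29, made up 40.4% to 43.5% of that sum in WT and 34.3% to 35.4% in the other group. Without them the sum was 1033, 1139 and 1171 CPM in WT and 1523, 1540 and 1520 CPM in the libraries labelled ΔTUT4/7. The sum over the hosts thus differed through genes other than SNHG16 and SNHG29.

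**Figure D1:**
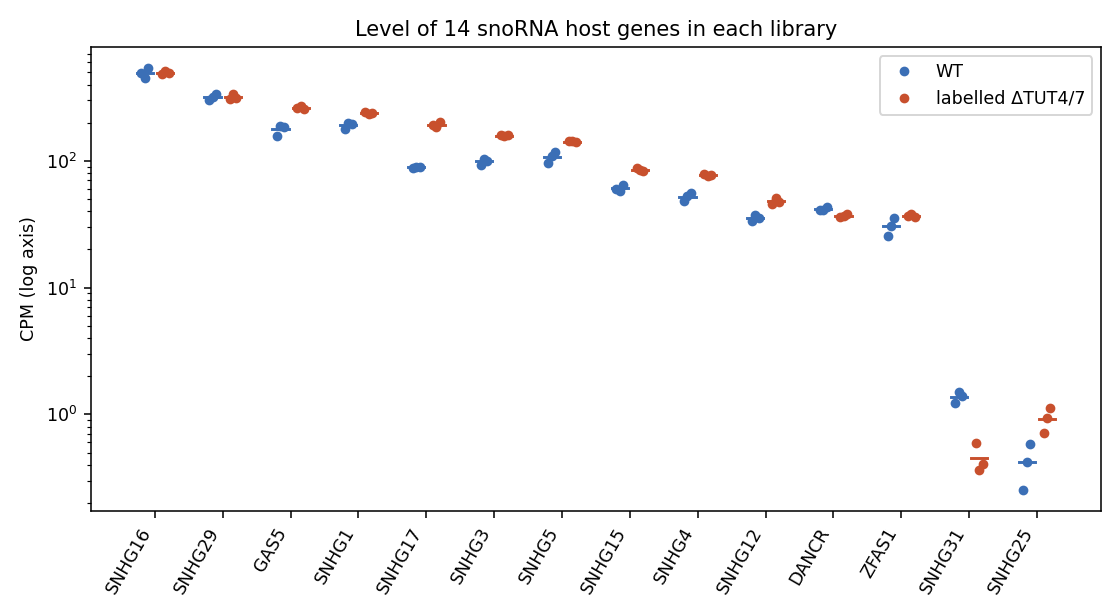
CPM (log axis) of 14 host genes in each of the 6 libraries, WT in blue and labelled ΔTUT4/7 in red, with a short line at each group's mean. SNHG16 and SNHG29 have overlapping groups, SNHG17 lies at 87.4 to 89.4 CPM in WT and at 186 to 204 CPM in the other group, and SNHG31 and SNHG25 sit near 1 CPM.

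Levels can be compared between genes only per length, here as CPM per kilobase of all annotated exons joined. In WT, SNHG16 stood first with 85.4 ± 7.27 CPM per kilobase (SD, n = 3), followed by SNHG1 with 48.3 ± 2.88. GAS5 with 35.9 ± 3.57 and SNHG29 with 35.7 ± 1.76 came next, and their libraries overlapped. SNHG3 had 24.2 ± 1.30, SNHG32 20.4 ± 2.39 and SNHG15 15.4 ± 0.774 CPM per kilobase. The order ended with SNHG31 at 0.538 ± 0.0553 and SNHG9 at 0.471 ± 0.0300. In the libraries labelled ΔTUT4/7, SNHG16 remained first with 86.0 ± 2.05, and SNHG1 and GAS5 followed with 60.2 ± 0.642 and 53.3 ± 1.45. SNHG3 then stood above SNHG29, at 38.7 ± 0.0746 against 35.6 ± 1.61. SNHG17 moved from rank 12 to rank 8 and SNHG32 from rank 6 to rank 9. Exon lengths include retained introns that some annotated transcripts carry, so a gene with long extra exons, such as SNHG5 or SNHG17, ranks lower per kilobase than by CPM.

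Of the 10 hosts that held box C/D snoRNAs alone, 5 were higher, 2 lower and 3 did not pass, with a median log2 fold change of 0.29. Beside this and the counts of other host classes below, 28.6% of all genes tested were higher and 29.0% lower. SNHG16, host of the SNORD1 group, had 493, 452 and 536 CPM in WT and 487, 510 and 493 CPM in the libraries labelled ΔTUT4/7. SNHG29, host of SNORD49A, SNORD49B and SNORD65, had 303, 321 and 334 CPM in WT and 308, 335 and 313 CPM in the other group. In both genes the groups overlapped, with log2 fold changes of 0.01 ± 0.05 (adjusted p = 0.893) and -0.00 ± 0.05 (adjusted p = 0.959). The difference in SNHG16 turned negative, without a call, with upper-quartile scaling or scaling by library size alone. SNHG29 was called lower with scaling by library size alone (log2 fold change -0.12, adjusted p = 0.0317), a scaling that moved the median of all genes by -0.11.

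SNHG1, first described as the host of the U22 snoRNA, carries box C/D snoRNAs in nearly every intron. SNORD25, SNORD27 and SNORD30 are shown as examples, with the short conserved boxes of their class. They lie on the minus strand of chromosome 11, and capitals mark the C box (TGATGA) and the D box (CTGA).
SNORD25, chr11:62855564-62855632: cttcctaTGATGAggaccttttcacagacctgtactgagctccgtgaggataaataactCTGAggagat
SNORD27, chr11:62855012-62855083: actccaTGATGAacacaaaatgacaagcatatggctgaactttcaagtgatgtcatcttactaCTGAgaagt
SNORD30, chr11:62853663-62853732: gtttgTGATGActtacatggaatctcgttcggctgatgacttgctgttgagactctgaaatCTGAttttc

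SNHG1 itself (chr11:62851984-62855953) had 179, 200 and 197 CPM in WT and 241, 236 and 240 CPM in the libraries labelled ΔTUT4/7. The groups did not overlap, and the log2 fold change was 0.32 ± 0.05 (adjusted p = 5.65e-06). SNHG5, host of SNORD50A and SNORD50B, had 95.9, 108 and 117 CPM in WT and 143, 143 and 140 CPM in the other group. All of the libraries labelled ΔTUT4/7 again lay above all WT libraries, with a log2 fold change of 0.40 ± 0.06 (adjusted p = 9.03e-06). The difference in these hosts was an increase by a factor of 1.25 in SNHG1 and 1.32 in SNHG5.

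ZFAS1 lies antisense to the start of ZNFX1 and hosts the SNORD12 group. It had 25.6, 30.4 and 35.7 CPM in WT and 36.6, 37.9 and 35.9 CPM in the libraries labelled ΔTUT4/7. The WT libraries spread widely and the highest of them nearly reached the lowest of the other group, with a log2 fold change of 0.26 ± 0.10 (adjusted p = 0.0346). That call was lost without WT replicate 1 (adjusted p = 0.117, log2 fold change 0.15), WT replicate 2 (0.118), ΔTUT4/7 replicate 1 (0.0832), replicate 2 (0.113) or replicate 3 (0.0606), and with upper-quartile scaling (0.181) or scaling by library size alone (0.176). Without WT replicate 3 the log2 fold change was 0.39 (adjusted p = 0.000308). Among box C/D hosts of lower level 2 were higher, SNHG26, which holds SNORD93, by 0.88 ± 0.09 on the log2 scale and SNHG30, which holds SNORD7, by 0.64 ± 0.12. SNHG19, with SNORD60, had 1.37, 1.31 and 2.05 CPM in WT and 2.18, 2.27 and 2.55 CPM in the other group and did not pass (log2 fold change 0.54 ± 0.23, adjusted p = 0.0521). It passed without WT replicate 3, its highest WT library (adjusted p = 0.0109).

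The box C/D hosts that fell were SNHG32 and SNHG6. SNHG32, in the major histocompatibility region of chromosome 6, holds SNORD48 and SNORD52, small RNAs that are often used as reference RNAs in microRNA assays. Both are on the plus strand, with the C and D boxes in capitals.
SNORD48, chr6:31835263-31835326: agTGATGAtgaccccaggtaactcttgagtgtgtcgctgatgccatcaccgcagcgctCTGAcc
SNORD52, chr6:31837076-31837142: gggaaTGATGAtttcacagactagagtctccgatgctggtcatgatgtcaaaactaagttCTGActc

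SNHG32 had 31.7, 38.7 and 39.6 CPM in WT and 25.6, 27.4 and 26.7 CPM in the libraries labelled ΔTUT4/7. The groups did not overlap, and the gene fell by 0.47 ± 0.08 on the log2 scale (adjusted p = 2.7e-05). Its span is nearly all covered by AL671762.1 on the same strand, described below, so its value is uncertain. SNHG32 is among the 6 genes with a C and a pyrimidine run at the RefSeq start. That group thus held 4 hosts that rose (SNHG4, SNHG12, SNHG5 and ZFAS1), 1 that fell and 1, SNHG19, that did not pass. The median of these 6 was 0.41, beside 0.35 for the 18 hosts with another RefSeq start, of which 10 rose and 3 fell. SNHG6, host of SNORD87, had 27.8, 30.7 and 37.2 CPM in WT and 25.6, 29.3 and 23.2 CPM in the other group, with overlapping libraries. Its log2 fold change was -0.30 ± 0.11 (adjusted p = 0.0388), and the call was lost without WT replicate 2 (0.0773), WT replicate 3 (0.117, log2 fold change -0.17), ΔTUT4/7 replicate 1 (0.111) or replicate 3 (0.109).

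Of the 11 hosts that held box H/ACA snoRNAs alone, 6 were higher, 3 lower and 2 did not pass, with a median log2 fold change of 0.45. SNHG17 (chr20:38419638-38435409) holds the SNORA71 group. It had 87.4, 89.4 and 89.3 CPM in WT and 191, 186 and 204 CPM in the libraries labelled ΔTUT4/7. Each library of 1 group lay far from each library of the other, and the level was 2.18 times as high (log2 fold change 1.12 ± 0.05, adjusted p = 2.16e-14). SNHG11, its neighbour on chromosome 20 and host of SNORA60 and SNORA71E, rose by less, from 8.99 ± 0.449 to 12.2 ± 0.948 CPM (SD, n = 3, log2 fold change 0.45 ± 0.11).

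SNHG3 (chr1:28505980-28510892) is the host of both copies of U17, named SNORA73A and SNORA73B, which take part in early cleavages of the ribosomal RNA precursor rather than guiding a modification. The gene had 93.5, 104 and 99.2 CPM in WT and 159, 158 and 159 CPM in the libraries labelled ΔTUT4/7. The libraries labelled ΔTUT4/7 lay within 1 CPM of each other and above every WT library, with a log2 fold change of 0.68 ± 0.05 (adjusted p = 8.46e-11). SNHG4, host of SNORA74A and SNORA74D, had 48.4, 53.1 and 55.5 CPM in WT and 78.0, 76.3 and 77.7 CPM in the other group. Its groups did not overlap, and the log2 fold change was 0.56 ± 0.06 (adjusted p = 2.41e-08). SNHG15, host of SNORA9 and known as a short-lived RNA, had 60.3, 58.1 and 64.1 CPM in WT and 88.3, 84.2 and 83.7 CPM in the libraries labelled ΔTUT4/7. It too did not overlap, with a log2 fold change of 0.49 ± 0.05 (adjusted p = 8.2e-08). SNHG7, host of SNORA17A and SNORA17B, rose by 0.39 ± 0.07 on the same scale, or by 0.19 with an offset for GC content and length (adjusted p = 0.0370).

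DANCR, SNHG8 and SNHG31 were the box H/ACA hosts that fell. DANCR, a lncRNA named for opposing differentiation and host of SNORA26, had 41.2, 40.6 and 43.5 CPM in WT and 35.8, 36.7 and 38.4 CPM in the libraries labelled ΔTUT4/7. All WT libraries lay above the others, and the gene fell by 0.18 ± 0.06 on the log2 scale (adjusted p = 0.0162), a call lost without WT replicate 3 (0.0643) or ΔTUT4/7 replicate 1 (0.0781). With an offset for GC content and length its log2 fold change was -0.09 (adjusted p = 0.162). SNHG8, host of SNORA24, had 25.5, 30.3 and 34.0 CPM in WT and 20.2, 26.9 and 22.6 CPM in the other group, where the lowest WT library lay below the highest of the other group. Its log2 fold change was -0.38 ± 0.12 (adjusted p = 0.0234), and the call was lost without WT replicate 2 (0.0891), ΔTUT4/7 replicate 1 (0.0561) or replicate 3 (0.0742). SNHG31, which holds SNORA70I, had 1.22, 1.5 and 1.40 CPM in WT and 0.593, 0.361 and 0.409 CPM in the libraries labelled ΔTUT4/7. The groups did not overlap, and it fell by 1.54 ± 0.32 on the log2 scale (adjusted p = 0.00025), from 24, 39 and 43 counts to 19, 7 and 8. EPB41L4A-AS1, with SNORA13, had 26.6, 30.0 and 26.7 CPM in WT and 31.5, 31.5 and 29.6 CPM in the other group and did not pass (adjusted p = 0.0711), but it did without WT replicate 2 (0.0192). SNHG9, with SNORA78, had 6, 7 and 9 counts in WT and 14, 18 and 3.37 in the other group, too few to show a difference of its fitted size (log2 fold change 0.78 ± 0.57, adjusted p = 0.252).

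The 4 hosts of a scaRNA were SNHG10, SNHG20, SNHG21 and SNHG22. SNHG10, host of SCARNA13, rose from 9.97 ± 0.758 to 14.1 ± 0.921 CPM (log2 fold change 0.50 ± 0.10, adjusted p = 0.000238). SNHG20, host of SCARNA16, rose from 22.5 ± 1.73 to 32.7 ± 1.44 CPM (log2 fold change 0.54 ± 0.07, adjusted p = 2.18e-06). SNHG21 and SNHG22 did not pass, with log2 fold changes of -0.27 ± 0.23 and -0.38 ± 0.18. SNHG22 had 9.47, 7.27 and 13.0 CPM in WT and 7.52, 7.78 and 7.66 CPM in the libraries labelled ΔTUT4/7, and was called lower without WT replicate 2, its lowest WT library (adjusted p = 0.00139), and with upper-quartile scaling (0.0360) or scaling by library size alone (0.0228). Without WT replicate 3, its highest WT library, its log2 fold change was -0.12 (adjusted p = 0.487).

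All 3 hosts with both box types were higher. GAS5 is among them only through SNORA103, which was placed in its span by RefSeq position, without a check of strand. The other snoRNAs in GAS5 are box C/D. GAS5 (chr1:173858559-173868882), a gene found through its accumulation in growth-arrested cells and a textbook case of a TOP RNA removed by nonsense-mediated decay, had 157, 188 and 186 CPM in WT and 261, 271 and 257 CPM in the libraries labelled ΔTUT4/7. The groups did not overlap, and the log2 fold change was 0.57 ± 0.06 (adjusted p = 5.88e-07). SNORD47, the reference RNA of the microRNA RT-qPCR done on the same lines, is encoded within GAS5. RefSeq placed it at chr1:173864369-173864445, and its own level was not analysed here. SNHG12, host of SNORA16A, SNORA44, SNORA61 and SNORD99, had 33.7, 37.5 and 35.7 CPM in WT and 45.7, 51.0 and 47.1 CPM in the other group. Its groups were apart as well, with a log2 fold change of 0.42 ± 0.06 (adjusted p = 7.84e-06). SNHG25, a short host of SNORD104 and SNORA50C, had 0.255, 0.423 and 0.587 CPM in WT and 0.718, 0.928 and 1.12 CPM in the libraries labelled ΔTUT4/7. The groups did not overlap but rested on 5, 11 and 18 counts against 23, 18 and 22, with a log2 fold change of 1.05 ± 0.39 (adjusted p = 0.0249). That call was lost in DESeq2 (adjusted p = 0.0845) and, in edgeR, without WT replicate 1 (0.0882), WT replicate 2 (0.0589), ΔTUT4/7 replicate 2 (0.0566) or replicate 3 (0.101).

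**Figure D2:**
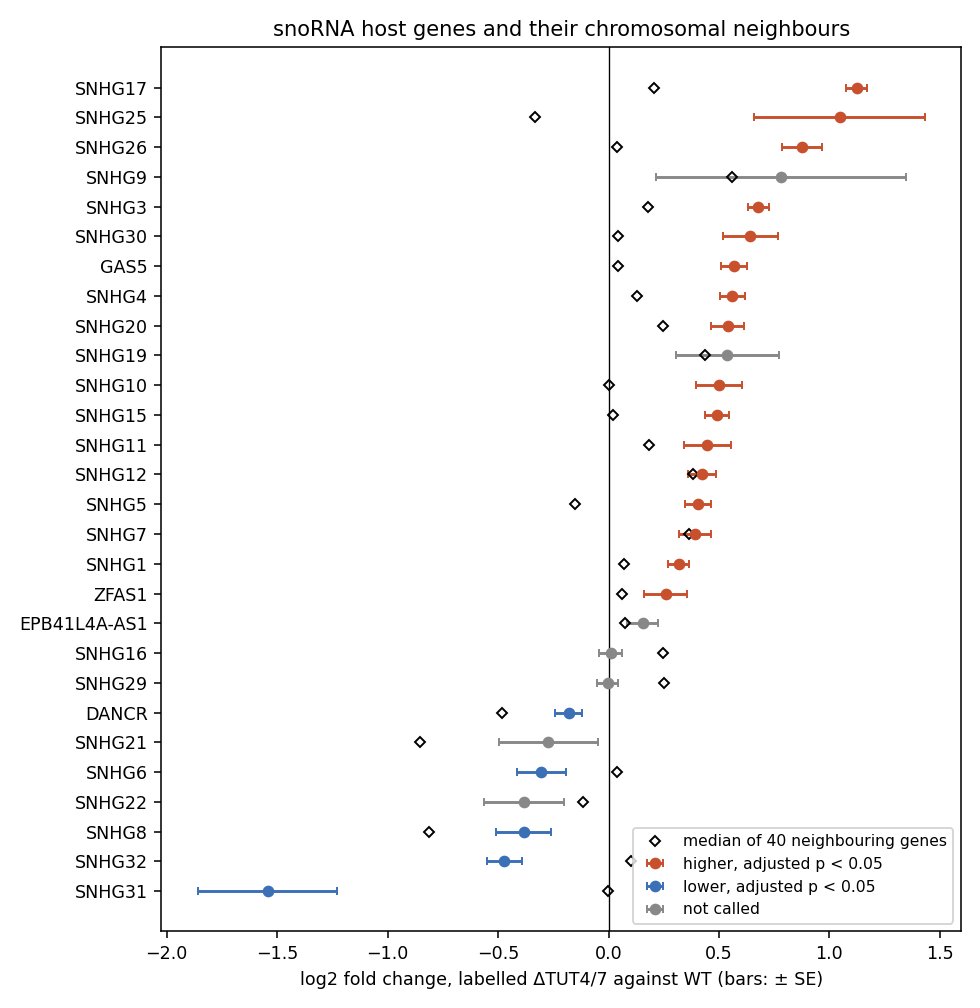
Log2 fold change (± SE) of the 28 host genes in the libraries labelled ΔTUT4/7 against WT, red where called higher, blue where called lower and grey where not called, with an open diamond at the median of 40 neighbouring genes. The points run from -1.54 in SNHG31 to 1.12 in SNHG17, and 22 of the 28 lie to the right of their diamond.

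Each host was set beside its chromosomal surroundings, as the median log2 fold change of the 40 nearest tested genes whose mean count reached 50. The neighbours' medians ran from -0.86 around SNHG21 to 0.56 around SNHG9. The hosts lay above their neighbours in 22 of 28 cases, by a median of 0.28. All 16 hosts called higher did so, which is likely from their being picked for a rise. How often other genes lay above their own neighbours was not counted. GAS5 stood at 0.57 among neighbours at 0.04, SNHG15 at 0.49 among neighbours at 0.02 and SNHG17 at 1.12 among neighbours at 0.21. SNHG12 and SNHG7, in contrast, stood at 0.42 and 0.39 among neighbours at 0.38 and 0.36, so their rise was close to that of the genes around them. Among the hosts called lower, DANCR (-0.18 among neighbours at -0.48) and SNHG8 (-0.38 among neighbours at -0.81) lay above their surroundings, and SNHG31, SNHG32 and SNHG6 lay below theirs. No test was made of these differences.

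Estimated counts are shared by a model between genes whose exons overlap, and whether strand was used in counting is not given in the sources used here, so values of overlapped hosts are uncertain. Another tested gene overlapped 19 of the 28 hosts, on the opposite strand in 16 and on the same strand in 5. RCC1, the nuclear exchange factor for Ran, shares its 5′ end with SNHG3 and rose from 130 ± 3.33 to 269 ± 3.92 CPM (log2 fold change 1.05 ± 0.04), and MATR3, a nuclear matrix protein gene that overlaps SNHG4, rose by 0.45 ± 0.04 on the log2 scale. On the strand opposite GAS5, ZBTB37 fell by 0.70 ± 0.06, while GAS5-AS1 rose by 0.48 ± 0.12. PRSS12, opposite SNHG8, fell by 1.83 ± 0.09, and ABCA12, opposite SNHG31, fell by 1.93 ± 0.45, so both hosts fell together with the gene on the other strand. ZNFX1, opposite ZFAS1, fell by 0.27 ± 0.06. SNHG1, SNHG5, SNHG15 and SNHG17 had no overlapping tested gene other than snoRNA genes.

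The snoRNA genes inside the hosts were counted in a few cases only. Of the 65, 8 passed the count limit, in 5 hosts. Of these 8, 2 were called higher and none lower, beside 28.6% and 29.0% of all genes tested. The row named SNORA71, among the 2, runs past the end of its host and is not of the held copy alone. An intronic read over a snoRNA and a read from the mature snoRNA cannot be told apart in these counts, and the SNORA71 and SNORA73 copies are so alike that reads can be split between them. The sequences of the U17 copies and of SNORA71A are shown for that reason, with the ACA box near the 3′ end in capitals. SNORA73A and SNORA73B are on the plus strand and SNORA71A on the minus strand.
SNORA73A, chr1:28507366-28507571: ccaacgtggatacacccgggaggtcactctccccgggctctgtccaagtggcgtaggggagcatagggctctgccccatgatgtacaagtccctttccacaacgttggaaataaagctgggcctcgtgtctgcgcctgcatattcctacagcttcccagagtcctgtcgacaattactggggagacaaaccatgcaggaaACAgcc
SNORA73B, chr1:28508559-28508762: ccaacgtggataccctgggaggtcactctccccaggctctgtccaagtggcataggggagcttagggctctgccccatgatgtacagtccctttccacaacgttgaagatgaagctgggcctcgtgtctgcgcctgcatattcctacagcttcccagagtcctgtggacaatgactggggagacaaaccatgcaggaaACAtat
SNORA71A, chr20:38427309-38427442: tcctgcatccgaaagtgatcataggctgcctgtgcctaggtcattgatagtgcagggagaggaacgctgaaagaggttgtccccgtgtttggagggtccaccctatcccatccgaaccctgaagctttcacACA

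In SNHG17 the held SNORA71A was called higher, as the host was. SNORA71A had 2.60, 1.58 and 0.717 CPM in WT and 3.68, 3.35 and 4.03 CPM in the libraries labelled ΔTUT4/7, without overlap (log2 fold change 1.24 ± 0.35, adjusted p = 0.0127). The row named SNORA71 spans chr20:38421647-38442169, beyond the end of SNHG17, and can hold reads from outside the host. It was called higher too (log2 fold change 2.86 ± 0.93, adjusted p = 0.0231). Its groups overlapped, with 0.0509, 0.269 and 0 CPM in WT and 0.967, 0.155 and 1.23 CPM in the other group. SNORA71B was at 1.77 ± 0.258 and 2.52 ± 0.396 CPM and did not pass (adjusted p = 0.0509). In SNHG3, SNORA73A had 15.9, 14.5 and 27.5 CPM in WT and 9.92, 11 and 12.3 CPM in the libraries labelled ΔTUT4/7, while the host was higher. Its groups did not overlap, yet the log2 fold change of -0.82 ± 0.31 did not pass (adjusted p = 0.0789). SNORA73B had -0.48 ± 0.26 (adjusted p = 0.178), SNORA74A in SNHG4 -0.61 ± 0.32 (adjusted p = 0.114) and SCARNA13 in SNHG10 -0.93 ± 0.37 (adjusted p = 0.0889), each in a host that rose. SCARNA16 in SNHG20 had reads in WT replicate 3 alone. That library stood apart for such genes in general, with 295 CPM over the 44 tested snoRNA genes beside 228 and 210 CPM in WT replicates 1 and 2, and 153 CPM over the 9 tested scaRNA genes beside 103 CPM or less. Its part in these values was not tested.

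**Figure D3:**
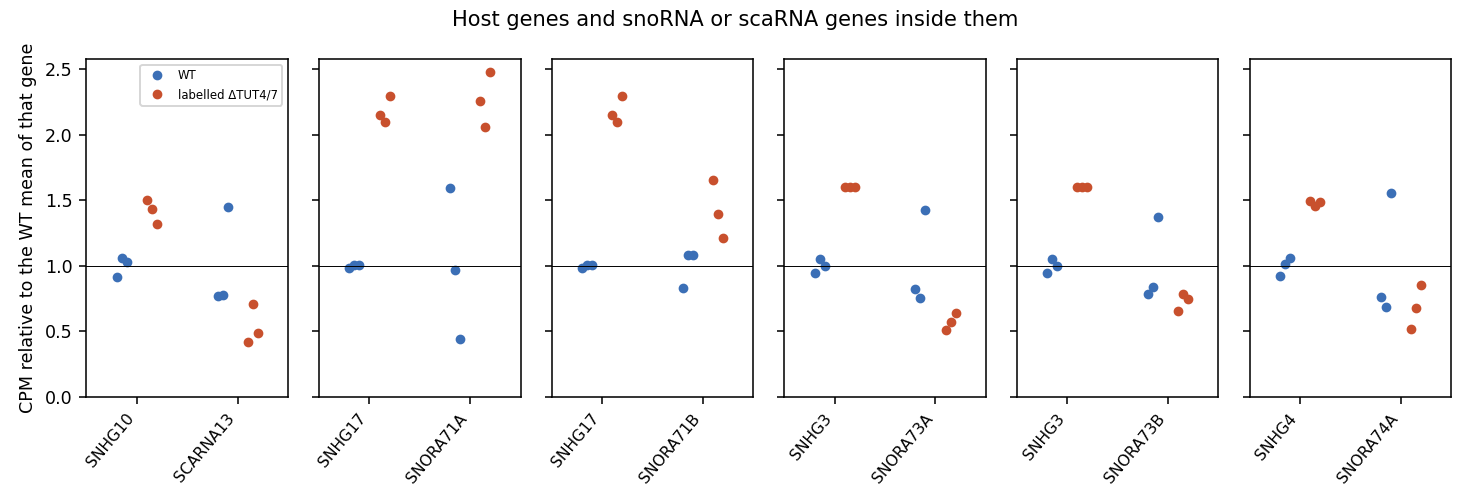
Each panel pairs a host gene with a snoRNA or scaRNA gene inside it, as CPM in each library divided by the WT mean of that gene (1 is the WT mean), WT in blue and labelled ΔTUT4/7 in red. SNHG17 and SNORA71A are both above 1 in the red libraries, whereas SNHG3 is above 1 and SNORA73A, at 9.92 to 12.3 CPM against 14.5 to 27.5 CPM, is below 1.

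Beside the 28 genes, 226 other tested genes held a snoRNA in an intron, 222 of them protein-coding. Of these other hosts 110 were higher and 63 lower, with a median log2 fold change of 0.13. Over all genes tested, 28.6% were higher and 29.0% lower. With upper-quartile scaling 85 were higher and 78 lower, and with library size alone 83 and 80. The 28 cytosolic ribosomal protein genes among them, TOP genes like many of the SNHG family, had 10 higher and 7 lower with a median of 0.01. The remaining 198 had 100 higher and 56 lower with a median of 0.16. The SNHG and like genes, at 0.41, had a higher median than either of these groups of other hosts, a difference that was not tested. The largest rises were those of the readthrough gene SENP3-EIF4A1 (log2 fold change 1.73 ± 0.17), TEX14 (1.58 ± 0.16) and ODC1 (1.48 ± 0.05), the rate-limiting enzyme of polyamine synthesis and host of SNORA80B. The largest falls were those of FAM149A (-2.51 ± 0.19), CNTNAP2 (-1.77 ± 0.09) and ATP2B4 (-1.35 ± 0.05), a plasma membrane calcium pump and host of SNORA77. TEX14 and CNTNAP2 count as hosts through an annotated copy of U3 alone.

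**Figure D4:**
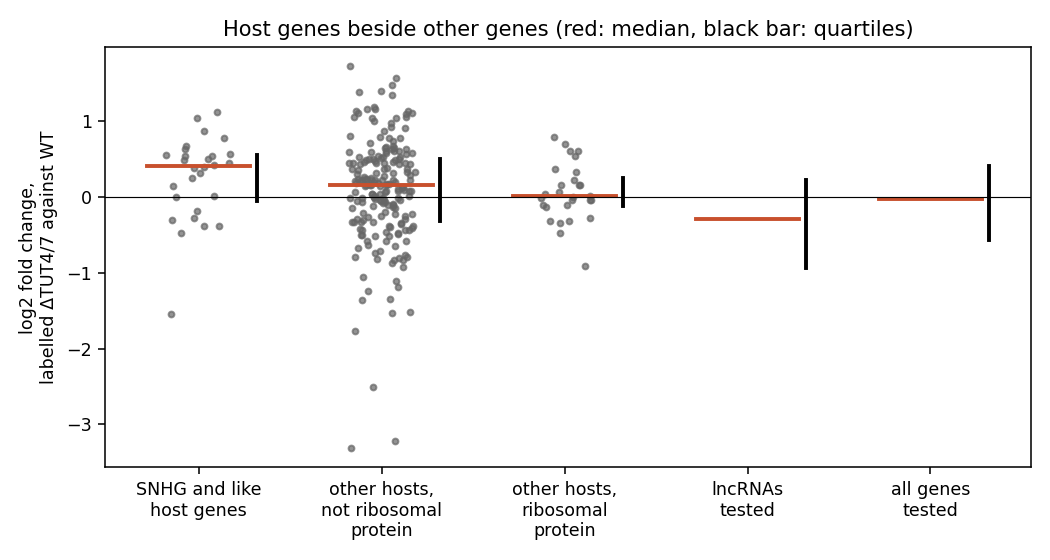
Log2 fold change of each gene (grey points) in the SNHG and like host genes and in 2 groups of other snoRNA hosts, with the median in red and the quartiles as a black bar, which are given without points for lncRNAs and for all genes. The medians are 0.41, 0.16, 0.01, -0.29 and -0.02 from left to right.

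The genes that act on these hosts and their snoRNAs were taken as 4 lists. Beside the counts of each list, 28.6% of all genes tested were higher and 29.0% lower. The listed genes had mean counts of at least 478. Among the 15575 genes with a mean count of at least 50, 6111 were higher and 4933 lower. Of 19 genes for the snoRNP core proteins and their assembly factors, 16 were higher and 1 lower, with a median log2 fold change of 0.50. DKC1, the pseudouridine synthase of box H/ACA particles, rose from 112 ± 2.76 to 296 ± 0.858 CPM (log2 fold change 1.40 ± 0.04, adjusted p = 1.63e-16). NOLC1, the Nopp140 chaperone of these particles, rose from 216 ± 18.9 to 571 ± 11.1 CPM (1.40 ± 0.05, adjusted p = 2.21e-14). SHQ1, a chaperone of DKC1 before assembly, was the gene that fell, by 0.87 ± 0.07, and ZNHIT3 and PIH1D1 did not pass.

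Of 7 genes for intron debranching and snoRNA trimming, 5 were higher and 2 lower, with a median of 0.28. DIS3, the nuclease of the nuclear exosome, rose by 0.57 ± 0.04 on the log2 scale (adjusted p = 3.76e-10), and DBR1, the lariat debranching enzyme, by 0.33 ± 0.07. XRN1, the main cytoplasmic 5′ to 3′ exonuclease, which also takes up RNAs cut or decapped in nonsense-mediated decay, fell by 0.63 ± 0.05, from 206 ± 7.78 to 134 ± 4.70 CPM (adjusted p = 1.95e-10). EXOSC10 fell by 0.24 ± 0.05.

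Of 18 genes for nonsense-mediated decay, 14 were higher and 1 lower, with a median of 0.50. EIF4A3, the core helicase of the exon junction complex, rose from 129 ± 4.64 to 231 ± 0.708 CPM (log2 fold change 0.84 ± 0.04, adjusted p = 8.01e-13), and UPF1, the helicase at the centre of the pathway, from 85.0 ± 3.6 to 137 ± 4.64 CPM (0.69 ± 0.05). NBAS, a Golgi tether that also acts in decay at the endoplasmic reticulum, was the gene that fell, by 1.09 ± 0.06 (adjusted p = 1.16e-12), and SMG6, PNRC2 and CASC3 did not pass. The hosts and the decay factors were thus both mostly higher, beside 28.6% of all genes tested, and a link between them was not tested.

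Of 9 regulators of TOP RNAs, 6 were higher and 3 lower, with a median of 0.16, and with upper-quartile scaling or scaling by library size alone 3 were higher. CNBP, which binds TOP RNAs, rose by 0.52 ± 0.05 (adjusted p = 4.04e-09) and LARP1, which binds the cap and the TOP tract, by 0.37 ± 0.04 (adjusted p = 1.85e-07). MTOR, EIF4EBP1 and TIA1 fell, by 0.14 ± 0.04, 0.36 ± 0.07 and 0.35 ± 0.05 in turn. SHQ1, DBR1, EXOSC10, UPF1 and the genes named here as lower or not passing, apart from XRN1 and NBAS, were named after their values were seen.

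**Figure D5:**
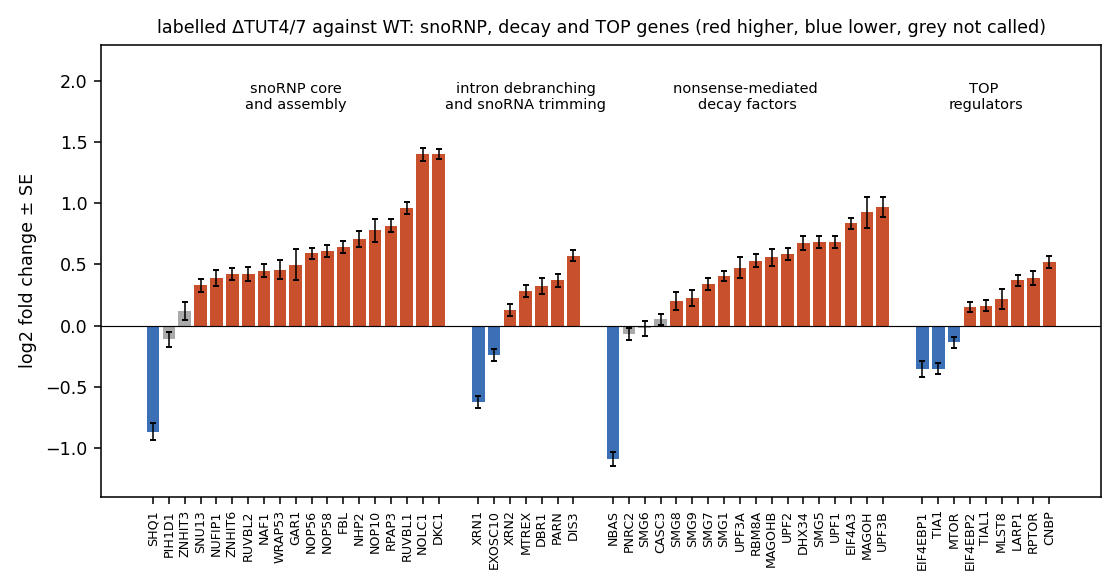
Log2 fold change (± SE) of each gene in the 4 lists of genes that act on the hosts or their snoRNAs, red where called higher, blue where called lower and grey where not called. DKC1 and NOLC1 reach 1.40 in the snoRNP list, and NBAS at -1.09 is the lowest bar.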

How the data were processed

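Total RNA of 3 WT and 3 ΔTUT4/7 HEK 293T samples was sequenced after ribosomal RNA depletion. The authors aligned paired reads to hg38 with STAR 2.7.3a and quantified Ensembl 102 genes in Partek Flow 10.0.22 (versions from the submitters' processing notes and the study's methods), and the deposited values are estimated counts, of which 45.2% to 50.0% per library were not whole numbers. Reads of overlapping or alike genes are divided by the authors' model, which makes their values uncertain. The authors' deposited comparison table, with p-values, FDR, a ratio, a fold change (a signed score) and group means (a signal), was not used.

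Counts were rounded, and genes with a largest count above 12 were kept (23952 genes, the 6318 others held 0.0962% of counts). They were tested with edgeR 4.0.16 in R 4.3.3 (TMM scaling, robust glmQLFit, glmQLFTest, group as the only term, all 6 libraries), with Benjamini-Hochberg adjustment over all genes tested. Adjusted p-values are those of edgeR where no tool is given. Calls were made at an adjusted p under 0.05. CPM is per 1e6 counts of the TMM-scaled library size, given as mean ± SD over 3 libraries, and SE was taken from the F statistic. Intronic snoRNAs, exon lengths and GC came from GENCODE 44, with RefSeq positions inside the members' spans added, and starts and promoters from RefSeq. Table ends are printed with 1 base taken off. Box classes follow the snoRNA names.

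The members and gene lists were chosen with earlier results of these data known. All members are named, with every library given for the 12 highest in mean CPM and for those changed 2-fold or more; of each list the genes changed 2-fold or more and the 2 with the smallest p are named; of other hosts, the 3 largest rises and falls at a mean count of 100 or more. The alternatives were 3 other scalings, 2 other filters on counts, a block for the replicate number, a GC and length offset, each library left out, DESeq2 1.42.0 and limma-voom 3.58.1. On simulated counts for the 23952 genes with 200 changed, 92% of 2-fold and 100% of 4-fold changes were recovered and 0.0379% of unchanged genes were called. The changed genes were drawn only from those above a limit on average level, so the recovered shares do not cover SNHG9 or SNHG25. The spread of each simulated gene was that fitted for genes of like level. Libraries of a group differed by more than sampling noise (chi-square per degree of freedom 2.44 to 10.3), and the biological coefficient of variation was 6.44%.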

Additional observations from a re-analysis of the deposited data

How the results depend on the processing

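Of the 28 host genes, 18 kept their direction and their side of the threshold under each of the 15 alternatives in which they were tested, 14 of them higher, 2 lower and 2 not called. The number called higher stayed between 14 and 17. The number called lower was 6 with upper-quartile scaling, 7 with library size alone and 3 with the GC and length offset and ran from 2 to 5 when 1 library was left out: 3 without WT replicate 3, 2 without ΔTUT4/7 replicate 1 and 3 without ΔTUT4/7 replicate 3. The median log2 fold change of the hosts was 0.31 with upper-quartile scaling and 0.30 with library size alone. It was 0.33 in a new fit of genes at a mean count of 50 or more, which left 24 hosts. In those same settings 2 snoRNP genes and 2 decay factors were lower and 3 TOP regulators higher. With the GC and length offset 2 snoRNP genes were lower. Without ΔTUT4/7 replicate 2, 2 decay factors were lower, and leaving out a single library gave 1 to 2. SNHG16 changed sign, without a call, to -0.0909 with upper-quartile scaling, -0.1055 with library size alone, -0.0541 at a mean count of 50 or more and, with 1 library left out, ran from -0.0507 to 0.0732. SNHG29 changed sign to 0.0344 with the GC and length offset and ran from -0.0440 to 0.0310 with 1 library left out. The GC and length offset ended the calls of DANCR (edgeR, adjusted p = 0.162), SNHG6 (0.112), SNHG8 (0.0727) and SNHG25 (0.0513), and EPB41L4A-AS1 (0.0139) and SNHG22 (0.0415) passed. The log2 fold change of SNHG1 was 0.20 with library size alone, still called. The cause was not tested.

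Replicate numbers did not pair the samples (same-number correlations of deviations 0.05, -0.01 and -0.02). With the replicate block 17 hosts were higher and 4 lower: SNHG19 passed (adjusted p = 0.0432) and SNHG6 did not (0.0951). Depth limits SNHG9, SNHG25 and SNHG31, with at most 43 counts in a library.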
